A study of Mus musculus with 20 samples.

Results

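The genes followed here across mouse nerve tumors are those of mast cells and their growth factor, Kit, Kitl, Cpa3, Tpsb2, Tpsab1, Cma1, Mcpt4, Fcer1a, Ms4a2 and Hdc. They were chosen by gene name and are 10 of the 24062 genes in the deposited count table. All 10 passed the filter on low counts that left 16589 genes for testing. The 20 bulk RNA-seq libraries came from untreated C57BL/6J mice that all carried floxed Nf1 alleles and DhhCre (Nf1fl/fl; DhhCre), in which the Dhh promoter drives Cre in the Schwann cell lineage. The 12 neurofibroma libraries had this genotype alone, whereas the 4 paraspinal tumor libraries and the 4 GEM-PNST libraries (genetically engineered mouse peripheral nerve sheath tumor) were also Ink4a/Arf+/-. The paraspinal libraries were labelled as sub-cluster #1 (2 libraries, subgroup 1) and sub-cluster #2 (2 libraries, subgroup 2). The ages of the mice, and whether each library came from a separate animal, were not given in the sources used here, so p-values measure the spread between libraries.

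Mast cells are tissue-resident granulated immune cells and a known component of neurofibromas. They survive and mature through the receptor tyrosine kinase KIT, which binds stem cell factor, the product of Kitl, made by fibroblasts, endothelium, Schwann cells and other stromal cells. IgE bound to the high-affinity receptor FcεRI triggers release of histamine and granule proteases, and connective tissue mast cells of the mouse store chymases, tryptases and carboxypeptidase A3. KIT is not restricted to mast cells, since melanocytes, germ cells, blood progenitors and subsets of sensory neurons also express it. The other 8 genes, Kit and Kitl apart, are called mast-restricted here, although basophils share Fcer1a, Ms4a2 and Hdc with mast cells.

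The promoters of 3 protease genes whose levels moved together, Cpa3, Cma1 and Mcpt4, are shown beside those of Fcer1a, which departed from the proteases in GEM-PNST, and of Kit. Each sequence holds the 250 bases before the RefSeq start site (GRCm38.p6), written 5′ to 3′ on the gene's strand. Capitals mark GATAA, the core of the sites bound by GATA factors, or TTATC, the same letters on the opposite strand.
Cpa3, chr3:20242182-20242431, minus strand: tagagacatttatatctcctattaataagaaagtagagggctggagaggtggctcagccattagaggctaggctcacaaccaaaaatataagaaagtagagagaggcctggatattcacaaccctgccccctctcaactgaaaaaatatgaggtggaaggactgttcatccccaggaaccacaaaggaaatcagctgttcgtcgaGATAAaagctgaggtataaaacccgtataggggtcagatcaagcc
Cma1, chr14:55944676-55944925, minus strand: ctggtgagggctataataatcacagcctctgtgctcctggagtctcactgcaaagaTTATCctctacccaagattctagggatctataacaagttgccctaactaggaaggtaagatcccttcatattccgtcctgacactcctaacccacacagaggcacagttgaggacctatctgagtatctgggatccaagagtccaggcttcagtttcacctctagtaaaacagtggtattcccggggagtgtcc
Mcpt4, chr14:56062311-56062560, minus strand: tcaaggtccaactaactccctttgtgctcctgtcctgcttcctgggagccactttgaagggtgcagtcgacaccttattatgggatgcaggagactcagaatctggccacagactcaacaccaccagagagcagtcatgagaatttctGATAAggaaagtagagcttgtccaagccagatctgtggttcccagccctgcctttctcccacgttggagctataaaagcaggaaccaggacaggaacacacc
Fcer1a, chr1:173227230-173227479, minus strand: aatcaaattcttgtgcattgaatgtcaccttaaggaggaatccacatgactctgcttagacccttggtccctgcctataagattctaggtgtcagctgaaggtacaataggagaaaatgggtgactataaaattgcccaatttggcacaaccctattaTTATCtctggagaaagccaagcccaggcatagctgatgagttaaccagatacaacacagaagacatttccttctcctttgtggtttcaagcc
Kit, chr5:75574737-75574986, plus strand: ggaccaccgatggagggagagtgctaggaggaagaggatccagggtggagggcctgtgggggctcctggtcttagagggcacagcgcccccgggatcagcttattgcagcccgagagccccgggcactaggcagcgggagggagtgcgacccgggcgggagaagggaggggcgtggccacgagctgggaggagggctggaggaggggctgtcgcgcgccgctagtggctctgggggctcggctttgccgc

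Promoters of 8 of the 10 genes were matched by symbol, and Tpsb2 and Tpsab1 were not matched. GATAA was found on either strand in 5 of these 8, namely Cpa3, Cma1, Mcpt4, Fcer1a and Ms4a2, and among all 32851 promoters of the same length 22.6% held it. Its first base lay at -45 from the start site in Cpa3, -194 in Cma1, -102 in Mcpt4 and -92 in Fcer1a. The E-box CATGTG was searched on both strands and found in 1 of the 8, Fcer1a, against 12.3% of all promoters. The palindromic E-box CACGTG was in 0 of the 8, against 6.02% of all promoters. No searched motif overlapped another, and a match describes the letters only.

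Total counts ranged from 9900759 to 17594164 in neurofibroma, from 18474071 to 24314222 in paraspinal tumor and from 16282605 to 22218382 in GEM-PNST. Levels are CPM, the reads of a gene as a share of the library total scaled by trimmed-mean (TMM) factors over all 20 libraries. Each comparison used edgeR's quasi-likelihood test with Benjamini-Hochberg adjustment over all 16589 genes and a threshold of 0.05. By the alignment names, neurofibroma libraries 1 to 6 were of run 1 and libraries 7 to 12 of run 2, and the 8 other libraries were of run 3. For every contrast against neurofibroma, the run, the Ink4a/Arf genotype and the stage cannot be told apart. Of the 20 libraries, 4 are described here as standing apart. Neurofibroma library 11 and GEM-PNST library 4, each at an end of its stage in some levels, are taken up below. Neurofibroma library 4 had a summed level of 16 sensory neuron genes of 26.0 CPM, against 2432 to 12969 CPM in the other 11 neurofibroma libraries. GEM-PNST library 3 had a summed level of 18 salivary gland and epithelial genes of 29530 CPM, against 329 to 811 CPM in the other 3. GEM-PNST library 1 had almost no granule protease RNA, and GEM-PNST library 2 almost no Kit. Library 1 also had a summed level of 6 pan-leukocyte genes of 11090 CPM, against 508 to 1729 CPM in the other 3 GEM-PNST libraries, and of 12 fibroblast genes of 483 CPM, against 6810 to 20136 CPM. Some codes in the labels differ only in their last letter, namely those of neurofibroma libraries 8 and 9 and those of GEM-PNST library 2 and paraspinal subgroup 1 library 1. The codes of both subgroup 2 libraries differ in 1 letter, and those of GEM-PNST libraries 1 and 4 in 1 digit. Whether such libraries came from 1 animal was not given in the sources used here, and all were treated as separate. The summed level of 12 Schwann cell lineage genes was 3326 to 16605 CPM in neurofibroma, 6583 to 13797 CPM in paraspinal tumor and 61.2 to 1332 CPM in GEM-PNST. There 10 of the 12 fell against neurofibroma, as did 37.9% of all genes.

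Counts of mast-restricted genes were found in every library. Their summed level was between 5.75 CPM in neurofibroma library 11 and 92.6 CPM in library 4, with a median of 47.1 CPM over the 12 neurofibroma libraries. It was 154, 105, 114 and 74.8 CPM in the 4 paraspinal libraries and 20.2, 8.74, 46.7 and 173 CPM in the 4 GEM-PNST libraries. In GEM-PNST library 1, 253 of the 299 counts in this sum were of Fcer1a and 34 of Hdc, which basophils share. The paraspinal sums lay in the upper part of the neurofibroma range or above it, whereas the GEM-PNST sums ran from near its lower end to above its upper end. Per kilobase of exon, Kitl had the highest mean of the 10 genes in neurofibroma, 12.8 ± 3.76 CPM per kb (SD, n = 12). Mcpt4 followed at 8.67 ± 5.74, then Cma1 at 7.22 ± 4.65, Cpa3 at 6.94 ± 4.39 and Kit at 4.80 ± 2.40 CPM per kb, a run of neighbours that did not differ beyond their spread. In paraspinal tumor the order per kilobase was headed by Cma1 at 24.5 ± 8.99, Mcpt4 at 23.7 ± 8.90 and Tpsb2 at 22.6 ± 7.54 CPM per kb (SD, n = 4), which likewise did not differ beyond their spread. In GEM-PNST Tpsb2 headed the order at 12.6 ± 17.7 CPM per kb, and its SD exceeded its mean. Hdc and Ms4a2 held the last 2 places in each of the 3 stages, at 0.0778 to 0.441 CPM per kb.

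**Figure D1:**
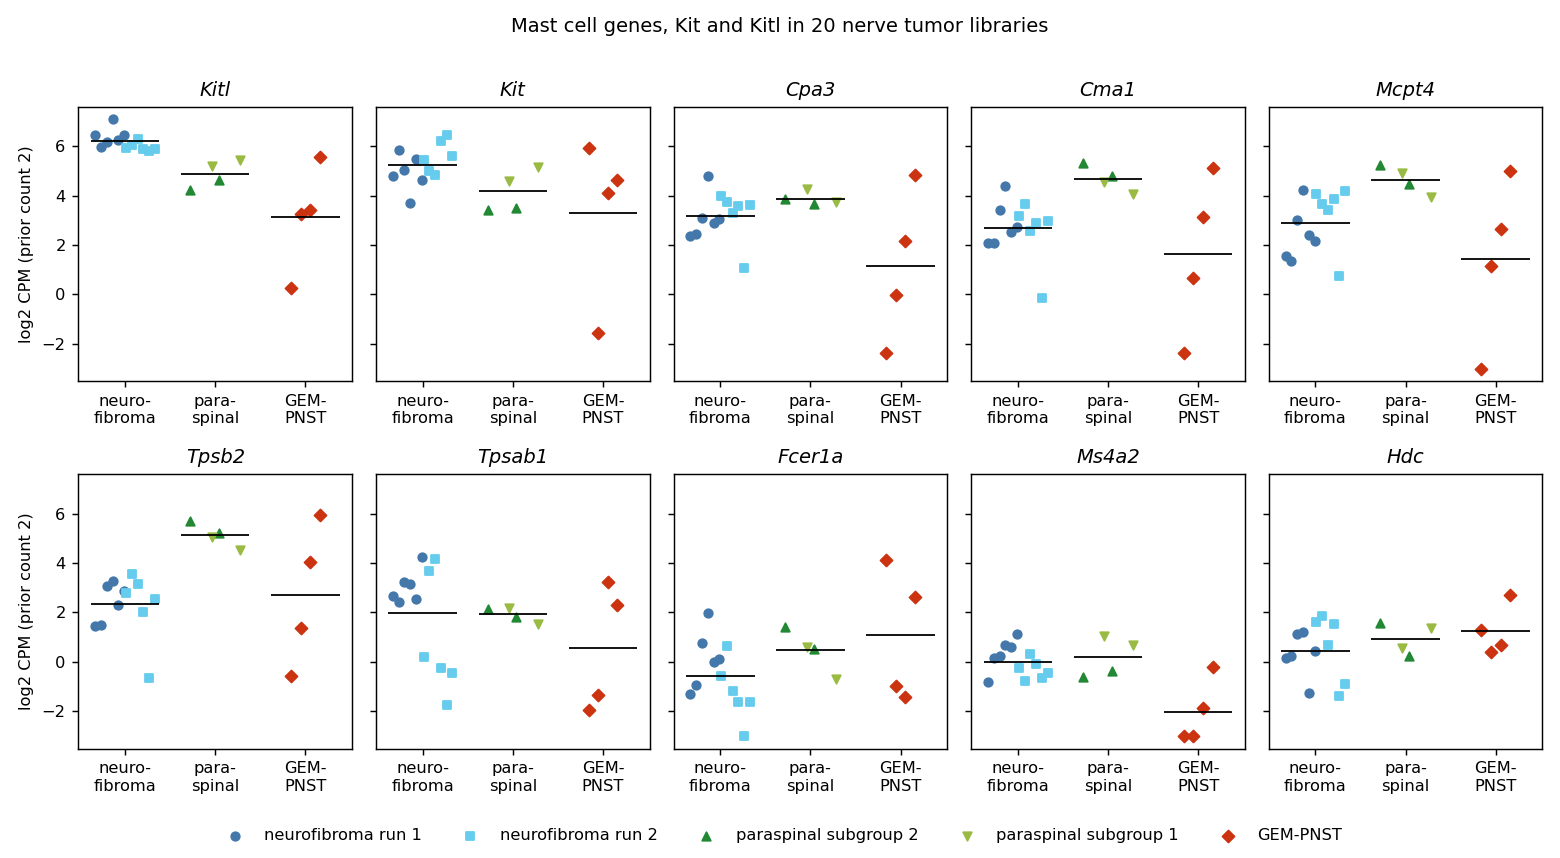
Level of each of the 10 genes in the 20 libraries, as log2 CPM with a prior count of 2 (vertical axis), by stage; each point is 1 library and each bar the mean of a stage. All 4 GEM-PNST and all 4 paraspinal Kitl points lie below the 12 neurofibroma points, and the GEM-PNST points of Cpa3, Cma1, Mcpt4 and Tpsb2 are spread from near 0 CPM to 28.3, 34.5, 31.7 and 61.0 CPM.

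Kitl, which encodes stem cell factor, fell in both tumor stages of the Ink4a/Arf+/- mice. The gene lies on the plus strand of chromosome 10 (GRCm38, GENCODE, chr10:100015630-100100416). In neurofibroma its level was 56.5 CPM at the lowest, 69.3 CPM at the median and 137 CPM at the highest, in library 4. It was 18.4 and 24.5 CPM in paraspinal subgroup 2, 36.3 and 42.9 CPM in subgroup 1, and 1.08, 9.55, 10.4 and 47.1 CPM in GEM-PNST. Every paraspinal and every GEM-PNST library lay below every neurofibroma library. Against neurofibroma, the log2 fold change was -2.15 in GEM-PNST (SE 0.59, adjusted p = 0.00378 by edgeR, a level 4.44-fold lower). In paraspinal tumor it was -1.30 (SE 0.25, adjusted p = 0.000275, 2.47-fold lower). The GEM-PNST call held under all 16 alternatives tried, with log2 fold changes from -3.42 to -1.76, and the paraspinal call under 17 of 18, with an adjusted p of 0.0717 in the other one. Kitl also differed somewhat between neurofibroma runs, with means of 63.1 ± 7.57 CPM in run 2 and 87.8 ± 25.7 CPM in run 1 (SD, n = 6 each), a log2 difference of -0.48 whose adjusted p was 0.274. In bulk tissue, fewer cells of a type and less RNA per cell cannot be told apart. Of 12 Schwann cell genes, 10 fell in GEM-PNST, where 37.9% of all genes fell. In paraspinal tumor 4 of the 12 rose and 1 fell, where 30.3% of all genes rose and 29.3% fell. The part of Schwann cells in the Kitl difference was not tested.

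Kit (plus strand, chr5:75574916-75656722), the receptor, varied widely within every stage. It was 12.9 CPM at the lowest, 37.9 CPM at the median and 87.0 CPM at the highest in neurofibroma, and 10.6 and 11.1 CPM in paraspinal subgroup 2. It was 24.1 and 35.9 CPM in subgroup 1 and 61.3, 0.216, 17.3 and 24.5 CPM in GEM-PNST, where library 2 held 4 Kit counts. Both subgroup 2 libraries lay below all 12 neurofibroma libraries, and the subgroup 1 libraries lay within the neurofibroma range. The paraspinal level was 2.09-fold lower than in neurofibroma, a log2 fold change of -1.07 with an SE of 0.43 (adjusted p = 0.0435). That call was lost without subgroup 2 library 1 (adjusted p = 0.143), without subgroup 2 library 2 (0.140) and without subgroup 1 library 1 (0.0621), and it held under 10 of 18 alternatives. GEM-PNST against neurofibroma gave a log2 fold change of -0.73 (SE 0.71, adjusted p = 0.364), and leaving out GEM-PNST library 1 or 2 gave -1.62 or -0.32.

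**Figure D2:**
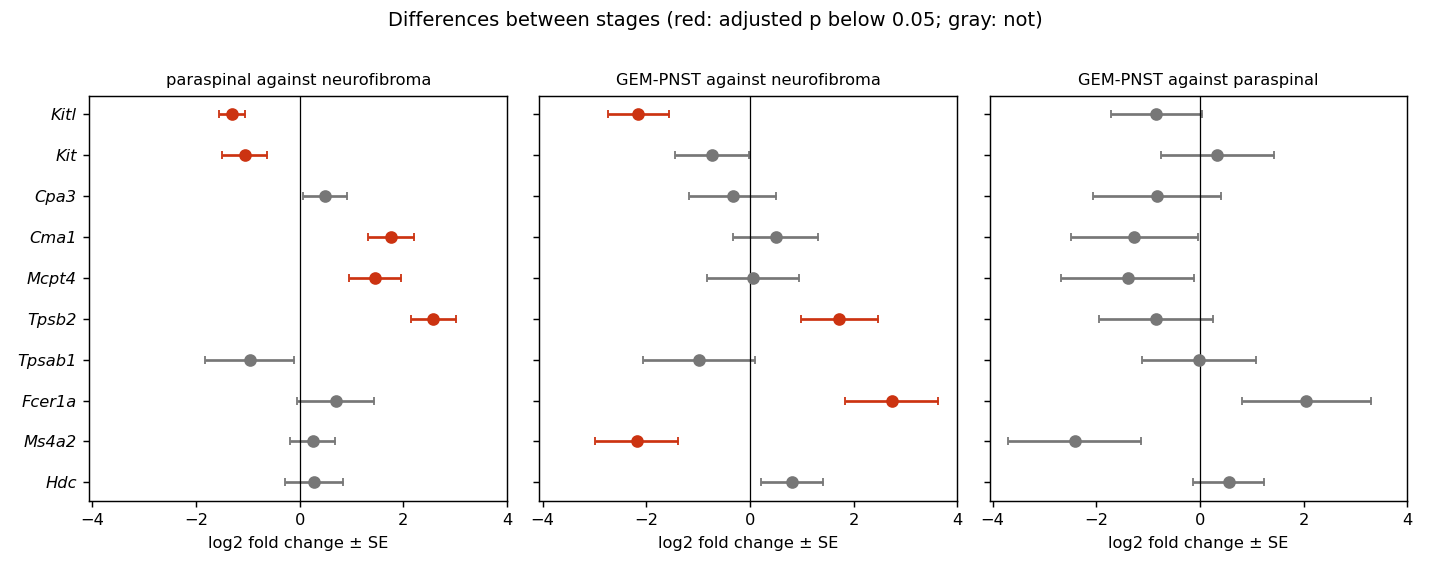
Log2 fold change ± SE (horizontal axis) of each of the 10 genes in the 3 comparisons of stages; points with an adjusted p under 0.05 are red and the others gray. Kitl is red in both comparisons with neurofibroma, Tpsb2, Cma1, Mcpt4 and Kit are red in paraspinal tumor, and no point is red for GEM-PNST against paraspinal tumor.

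Of the 5 granule protease genes, Tpsb2, Cma1 and Mcpt4 rose in paraspinal tumor, and Cpa3 and Tpsab1 did not pass the test. Among the 10 genes, 5 passed the test against neurofibroma (3 higher, 2 lower), where 59.5% of all genes tested passed, 30.3% higher and 29.3% lower, so the share is near the background. The groups did not overlap for 2 of the 10, Tpsb2 above and Kitl below, against 36.5% of all genes, 18.4% all higher and 18.1% all lower. The median log2 fold change of the 10 was 0.38, against -0.01 over all genes tested.

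Tpsb2 encodes a tryptase stored in mast cell granules, and lies on chr17:25366305-25369098 (plus strand). It was 0.515 CPM at the lowest, 6.23 CPM at the median and 11.7 CPM at the highest in neurofibroma. It was 51.7 and 37.0 CPM in paraspinal subgroup 2, 32.7 and 22.8 CPM in subgroup 1, and 0.541, 2.48, 16.4 and 61.0 CPM in GEM-PNST. All 4 paraspinal libraries were above all 12 neurofibroma libraries, whereas 2 of the 4 GEM-PNST libraries were above them and 2 within their range. The log2 fold change in paraspinal tumor was 2.57 (SE 0.43, adjusted p = 6.74e-05, 5.96-fold higher) and it stayed past the threshold in all 18 alternatives, from 2.20 to 3.73. In GEM-PNST it was 1.73 (SE 0.74, adjusted p = 0.0434), and that call rested on single libraries. Without GEM-PNST library 4 the log2 fold change was 0.10 (adjusted p = 0.913), without library 3 it was 1.82 (0.0574), and it passed under 8 of 16 alternatives.

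Cma1 (minus strand, chr14:55941451-55944675), the chymase of connective tissue mast cells, rose in paraspinal tumor. Its level was 0.772 CPM at the lowest, 6.86 CPM at the median and 20.6 CPM at the highest in neurofibroma. It was 39.8, 27.4, 23.0 and 16.6 CPM in paraspinal tumor (subgroup 2 first) and 0.0676, 1.46, 8.58 and 34.5 CPM in GEM-PNST. Only neurofibroma library 4 reached into the paraspinal range. The paraspinal log2 fold change was 1.76 (SE 0.45, adjusted p = 0.00267, 3.39-fold higher), and 16 of 18 alternatives kept the call. It was lost with all 20 libraries in 1 fit (adjusted p = 0.0541) and with subgroup 1 alone (0.0874).

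Mcpt4 (minus strand, chr14:56059629-56062313), a second chymase that cleaves extracellular matrix and coagulation proteins, followed the same order. It was 1.54 CPM at the lowest, 9.29 CPM at the median and 18.6 CPM at the highest in neurofibroma. It was 38, 22, 29.9 and 15.2 CPM in paraspinal tumor and 0, 2.10, 6.15 and 31.7 CPM in GEM-PNST. Of the 4 paraspinal libraries, 3 were above every neurofibroma library. The paraspinal log2 fold change was 1.45 (SE 0.51, adjusted p = 0.0204, 2.74-fold higher), which did not pass without subgroup 2 library 1 (1.22, adjusted p = 0.0846) and passed under 14 of 18 alternatives.

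Cpa3 (minus strand, chr3:20215620-20242181) encodes carboxypeptidase A3, a defining enzyme of mast cell granules, and its annotation also covers the miRNA gene Mir7007 on the same strand. It was 1.97 CPM at the lowest, 8.98 CPM at the median and 27.8 CPM at the highest in neurofibroma. It was 14.6, 12.4, 19.0 and 13.2 CPM in paraspinal tumor and 0.0676, 0.863, 4.37 and 28.3 CPM in GEM-PNST. The paraspinal libraries lay inside the neurofibroma range, and the log2 fold change of 0.49 did not pass (SE 0.42, adjusted p = 0.332). In GEM-PNST the log2 fold change was -0.33 (SE 0.84, adjusted p = 0.732). Without GEM-PNST library 4 it was -2.56 (adjusted p = 0.0166), past the threshold, so 1 library set that value.

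Of the 4 other proteases, only Tpsb2 had a ratio to Cpa3 that set the Ink4a/Arf+/- tumors apart from neurofibroma. Tpsb2 had 0.261 to 1.00 counts for each Cpa3 count in neurofibroma, 1.72 to 3.54 in paraspinal tumor and 2.16 to 8 in GEM-PNST, with no overlap of either tumor group with neurofibroma. The highest ratio is from GEM-PNST library 1, which held 8 Tpsb2 counts and 1 Cpa3 count. Cma1 had 0.391 to 1.29 counts for each Cpa3 count in neurofibroma, 1.21 to 2.72 in paraspinal tumor and 1.00 to 1.97 in GEM-PNST, and these ranges overlapped. So did those of Mcpt4, at 0.457 to 1.5 in neurofibroma, 1.15 to 2.60 in paraspinal tumor and 0 to 2.44 in GEM-PNST, and those of Tpsab1, at 0.0504 to 2.30, 0.207 to 0.296 and 0.171 to 2.14 in the same order. No test was made on these ratios. No window of 50 bases was shared between the annotated transcripts of any 2 of the 10 genes. Windows of 25 bases were shared between Tpsb2 and Tpsab1 (15 windows, 0.931% of those of Tpsb2 and 0.702% of those of Tpsab1) and between Cma1 and Mcpt4 (3 windows).

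Markers of other cells also changed in paraspinal tumor, in shares to be read against the 30.3% of all genes that rose and 29.3% that fell. Of 4 tested basophil genes, 2 rose, Il3ra (log2 fold change 4.47) and the basophil protease gene Prss34 (2.83). The other 2 did not pass, and averaged 0.113 ± 0.0790 CPM in paraspinal tumor and 0.453 ± 0.595 CPM in neurofibroma (Ccr3), and 0.406 ± 0.241 and 0.441 ± 0.311 CPM (Cd200r3, SD, n = 4 and 12). The summed level of the basophil list was 8.13 to 31.8 CPM in paraspinal tumor, most of it Il3ra, and 0.686 to 5.04 CPM in neurofibroma. Of 12 fibroblast genes 6 rose and none fell, and of 11 macrophage genes 4 rose and 1 fell. The tally was also 4 and 1 for 12 Schwann cell, 10 endothelial and 16 sensory neuron genes. The part of these cells in the protease differences was not tested.

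Tpsab1 (minus strand, chr17:25343245-25345562), the neighbouring tryptase gene, passed the test in neither comparison with neurofibroma. C57BL/6 mice are known to carry a splice-site change in Tpsab1 that prevents normal protein. In neurofibroma its level was 0.172 CPM at the lowest, 5.92 CPM at the median and 18.9 CPM at the highest. It was 4.32, 3.35, 4.42 and 2.74 CPM in paraspinal tumor and 0.135, 0.270, 9.33 and 4.84 CPM in GEM-PNST. The log2 fold change was -0.97 in paraspinal tumor (SE 0.85, adjusted p = 0.341) and -0.99 in GEM-PNST (SE 1.08, adjusted p = 0.419). Against the neurofibroma libraries of run 1 alone, the paraspinal log2 fold change was -1.28 (adjusted p = 0.016). This was the 1 call under 18 alternatives, which gave log2 fold changes from -1.28 to -0.54 and adjusted p up to 0.689.

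The share of tryptase counts that came from Tpsab1 split the neurofibroma libraries. It was 47.2% to 72.6% in 8 of them, namely all 6 of run 1 and libraries 8 and 9 of run 2. In libraries 7, 10, 11 and 12, all of run 2, it was 13%, 15.2%, 25% and 9.68%. The exact 95% binomial intervals, which cover counting error only, reached 21.2%, 28.9%, 65.1% and 19.9% in these 4 libraries, and library 11 held too few counts to be set apart. The share was 7.71% to 11.9% in the 4 paraspinal libraries, and 20%, 9.80%, 36.3% and 7.36% in GEM-PNST, the first of these on 10 counts. Libraries 8 and 9, of like code, had shares of 52.3% and 66.7%. The 4 libraries of low share were put together after their values were seen, so no test was made.

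**Figure D3:**
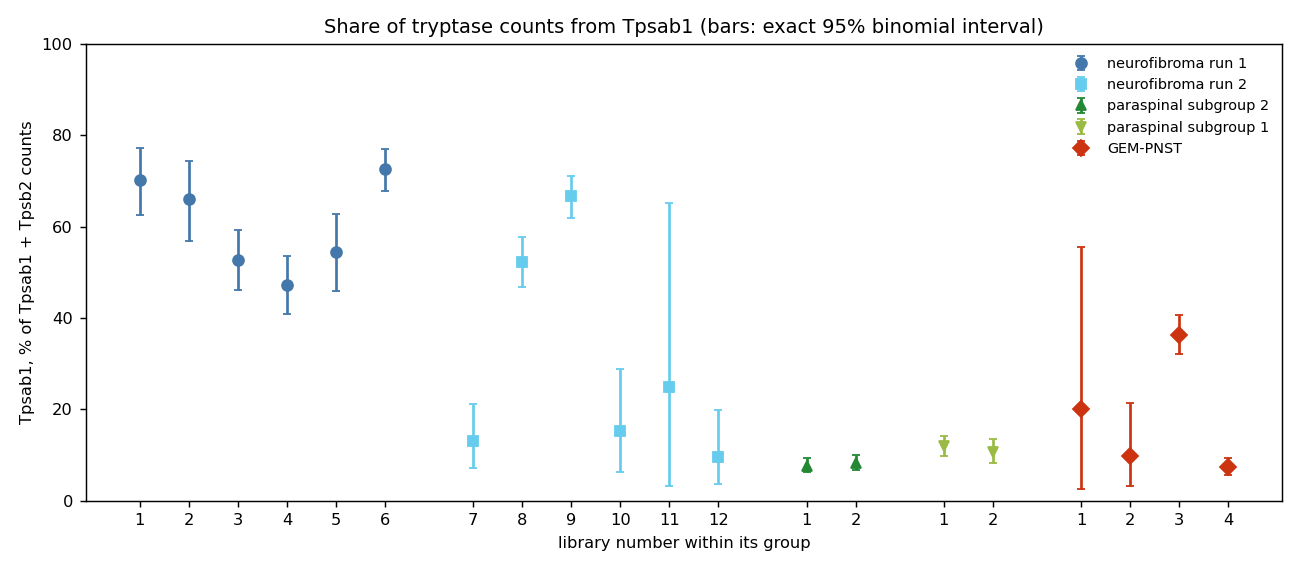
Tpsab1 as a percentage of Tpsab1 plus Tpsb2 counts (vertical axis) in each library (horizontal axis, by group and library number), with exact 95% binomial intervals as bars. Run 1 neurofibroma libraries and libraries 8 and 9 lie between 47.2% and 72.6%, whereas the paraspinal libraries lie between 7.71% and 11.9%.

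The IgE receptor genes Fcer1a and Ms4a2 were called in opposite directions in GEM-PNST, Fcer1a higher and Ms4a2 lower. Neither call held without GEM-PNST library 1. Of the 10 genes, 4 passed in GEM-PNST against neurofibroma, 2 higher (Tpsb2, Fcer1a) and 2 lower (Kitl, Ms4a2), where 73.3% of all genes passed, 35.4% higher and 37.9% lower. The groups did not overlap for 1 of the 10, Kitl, against 46.5% of all genes, 21.3% all higher and 25.2% all lower. The median log2 fold change of the 10 was -0.14, against -0.12 over all genes.

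Fcer1a (minus strand, chr1:173221284-173227214) encodes the IgE-binding alpha chain. It was 0 CPM at the lowest, 0.471 CPM at the median and 3.8 CPM at the highest in neurofibroma, and 2.52, 1.31, 1.40 and 0.486 CPM in paraspinal tumor. In GEM-PNST it was 17.1, 0.378, 0.248 and 6.05 CPM, so that libraries 1 and 4 were above all neurofibroma libraries and the other two within their range. The log2 fold change was 2.74 in GEM-PNST (SE 0.90, adjusted p = 0.0115, 6.67-fold higher) and 0.69 in paraspinal tumor (SE 0.75, adjusted p = 0.445). Without GEM-PNST library 1 the GEM-PNST value was 1.31 (adjusted p = 0.235).

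That library carried Fcer1a with almost no RNA of the granule proteases or Ms4a2. Of its 299 counts of mast-restricted genes, 253 were Fcer1a, 34 Hdc, 8 Tpsb2, 2 Tpsab1, 1 Cpa3 and 1 Cma1, and Mcpt4 and Ms4a2 were at 0. Its Kit level of 61.3 CPM (906 counts) was the highest of the GEM-PNST libraries, whereas its level of Gata2, a transcription factor that mast cells require, was 0.203 CPM (3 counts). Its levels of Ptprc, which encodes the pan-leukocyte antigen CD45, and of the adenosine receptor gene Adora3 were 299 and 102 CPM, each the highest of the 20 libraries. Its pan-leukocyte sum of 11090 CPM was the highest of the 20 too. The part of other leukocytes in the Fcer1a level was not tested.

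Ms4a2 (minus strand, chr19:11615523-11623719) encodes the signal-amplifying beta chain of the receptor. It was 0.444 CPM at the lowest, 0.896 CPM at the median and 2.04 CPM at the highest in neurofibroma, and 0.534, 0.656, 1.94 and 1.46 CPM in paraspinal tumor. In GEM-PNST it was 0, 0, 0.149 and 0.727 CPM, on 0, 0, 3 and 9 counts. Of the 4 GEM-PNST libraries, 3 lay below all neurofibroma libraries. The GEM-PNST level was 4.54-fold lower than in neurofibroma, a log2 fold change of -2.18 with an SE of 0.81 (adjusted p = 0.0221). That call missed the threshold without GEM-PNST library 1 (adjusted p = 0.0506) or library 3 (0.0565) and held under 10 of 16 alternatives.

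Hdc (minus strand, chr2:126593667-126619299), whose product makes histamine from histidine, was 0.257 CPM at the lowest, 1.36 CPM at the median and 3.46 CPM at the highest in neurofibroma. It was 2.82, 1.06, 1.36 and 2.43 CPM in paraspinal tumor and 2.30, 1.19, 1.49 and 6.30 CPM in GEM-PNST. The groups overlapped, and the log2 fold changes of 0.82 in GEM-PNST (SE 0.60, adjusted p = 0.227) and 0.27 in paraspinal tumor (SE 0.56, adjusted p = 0.700) did not pass.

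Between GEM-PNST and paraspinal tumor, which share a sequencing run and the Ink4a/Arf+/- genotype, none of the 10 genes passed. By edgeR 0 of 10 had an unadjusted p under 0.05, whereas 10.9% of all genes passed after adjustment, 3.07% higher and 7.82% lower. DESeq2 and limma-voom with sample weights also called 0 of the 10, where they called 28.4% and 17.2% of all genes. The groups overlapped for all 10, whereas 27.6% of all genes did not overlap, 11.2% all higher and 16.4% all lower. The median log2 fold change of the 10 was -0.83, against 0.04 over all genes. The standard errors ran from 0.68 for Hdc to 1.28 for Mcpt4, and the GEM-PNST libraries themselves were far apart. Leaving out GEM-PNST library 2 or paraspinal subgroup 1 library 1, whose codes are alike, also gave 0 calls. The largest log2 differences were -2.42 for Ms4a2 (SE 1.27, adjusted p = 0.213) and 2.05 for Fcer1a (SE 1.24, adjusted p = 0.273). The 3 comparisons of stages share libraries, so their values are not independent of each other.

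Between the neurofibroma runs 0 of the 10 genes passed by edgeR, as did 0% of all genes. DESeq2 also called 0 of the 10, where it called 3.17% of all genes. Kitl was the 1 gene of the 10 with an unadjusted p under 0.05. The runs overlapped for all 10, and 0.983% of all genes did not overlap, 0.319% all higher and 0.663% all lower in run 2.

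Between the paraspinal subgroups 0 of the 10 genes passed by edgeR, as did 0% of all genes, and none had an unadjusted p under 0.05. DESeq2 and limma-voom also called 0 of the 10, where they called 7.31% and 32.6% of all genes. With 2 libraries in each subgroup the groups did not overlap for 5 of the 10, against 69.6% of all genes, 34.6% all higher and 34.9% all lower. Kit, Kitl and Ms4a2 were lower in both subgroup 2 libraries, and Tpsb2 and Cma1 higher. Kit was 10.6 and 11.1 CPM in subgroup 2, against 24.1 and 35.9 CPM in subgroup 1 (log2 fold change -1.46, SE 1.60, adjusted p = 0.790). The edgeR test of the subgroups drew its spread from the GEM-PNST libraries too, so this SE is not that of the paraspinal libraries alone. The labels call the subgroups sub-clusters, and whether they were made from this same expression table was not given in the sources used here.

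Within neurofibroma, where stage and genotype are shared, Mcpt4, Cma1 and Tpsb2 varied with Cpa3 from library to library, and Tpsab1 did not pass. Of the 9 other genes, 5 had a Pearson correlation with Cpa3 whose permutation p, adjusted over the 9 relations computed, was under 0.05. For Mcpt4 r was 0.918 (permutation p = 1e-05, the smallest the permutations can give, adjusted p = 9e-05, n = 12) and rho 0.951 (permutation p = 1e-05, adjusted p = 9e-05). Without libraries 4 and 11, the farthest from the median of Cpa3, r was 0.946, and it was 0.942 in run 1 and 0.983 in run 2.

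For Cma1 r was 0.940 (permutation p = 4e-05, adjusted p = 0.00018) and rho 0.895 (permutation p = 0.00016, adjusted p = 0.00072), with r = 0.790 without libraries 4 and 11. For Tpsb2 r was 0.853 (permutation p = 0.00079, adjusted p = 0.00237) and rho 0.741 (permutation p = 0.00781, adjusted p = 0.0176), with r = 0.667 without these libraries. Within runs 1 and 2, r was 0.944 and 0.983 for Cma1, and 0.791 and 0.918 for Tpsb2. The exact permutation p within runs 1 and 2 was 0.00972 and 0.0208 for Mcpt4, 0.00278 and 0.0125 for Cma1, and 0.00139 and 0.0819 for Tpsb2, whose relation therefore did not pass in run 2.

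Fcer1a and Hdc gave weaker relations to Cpa3. For Fcer1a r was 0.690 (permutation p = 0.0137, adjusted p = 0.0309) but rho 0.434 (permutation p = 0.163, adjusted p = 0.293), and without libraries 4 and 11 r was 0.062, so the relation rests on those libraries. For Hdc r was 0.649 (permutation p = 0.0192, adjusted p = 0.0346) and rho 0.755 (permutation p = 0.00602, adjusted p = 0.0176), with r = 0.470 (permutation p = 0.171) without them. Tpsab1 (r = 0.297, rho = 0.140, adjusted permutation p = 0.38 and 0.756) and Ms4a2 (r = 0.283, rho = 0.147, adjusted permutation p = 0.38 and 0.756) did not pass. Kitl did not either (r = 0.422, rho = 0.056, adjusted permutation p = 0.221 and 0.869).

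Kit did not rise with Cpa3 (r = -0.593, permutation p = 0.0432, adjusted p = 0.0648; rho = -0.315, permutation p = 0.321, adjusted p = 0.482). Within runs r was -0.820 and -0.610, with run means subtracted it was -0.702 (adjusted permutation p = 0.0162), and without libraries 4 and 11 it was 0.174, so the sign rests on those libraries. Library 11 had 87.0 CPM of Kit and the lowest sum of mast-restricted genes, 5.75 CPM, whereas library 4 had 12.9 CPM of Kit and the highest sum, 92.6 CPM. Kit had 15.1 counts for each mast-restricted count in library 11 and 0.140 in library 4.

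**Figure D4:**
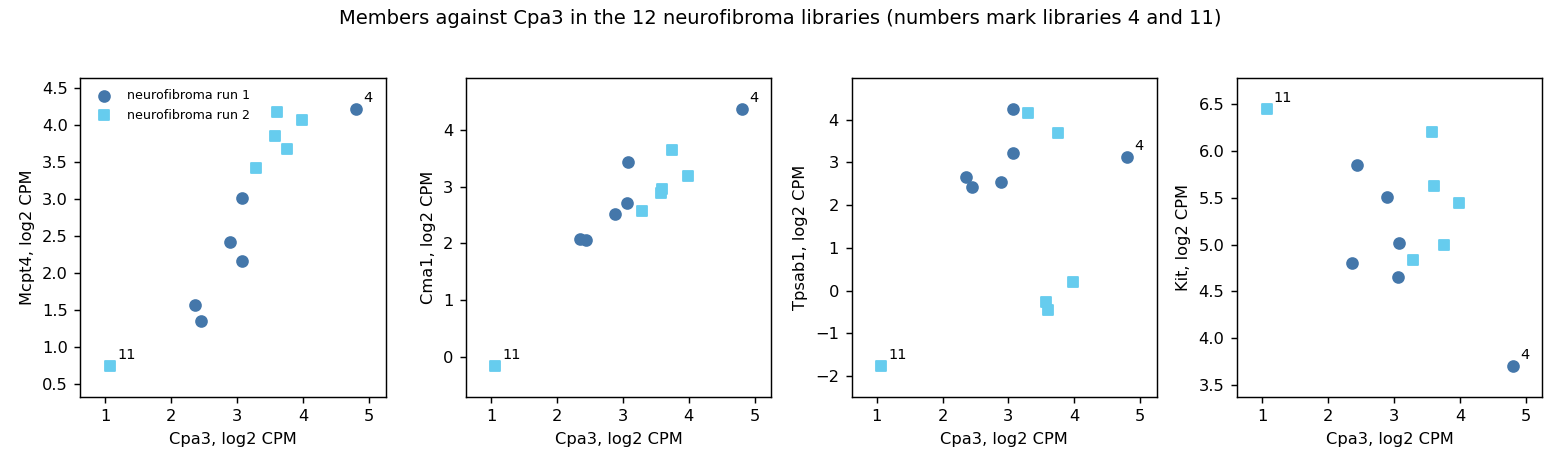
Log2 CPM of Mcpt4, Cma1, Tpsab1 and Kit (vertical axes) against log2 CPM of Cpa3 (horizontal axis) in the 12 neurofibroma libraries; colour and shape give the run. Mcpt4 and Cma1 lie along a line (r = 0.918 and 0.940), Tpsab1 has 3 run 2 libraries far below the rest at like Cpa3, and the Kit cloud has its ends at libraries 11 and 4.

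Kit in neurofibroma moved with genes of sensory neurons, in which KIT is also expressed. This relation was looked at after the levels were seen, as 1 of 18 relations of Kit, Kitl and Cpa3 to the mean log2 CPM of 6 cell type lists. The r of Kit with 16 sensory neuron genes was 0.845 (permutation p = 0.00015, adjusted p = 0.0027, n = 12) and rho 0.769 (permutation p = 0.00493, adjusted p = 0.0173). It was 0.737 without libraries 4 and 11, 0.897 in run 1 and 0.918 in run 2. Kit ran against the macrophage genes (r = -0.824, permutation p = 0.00068, adjusted p = 0.00474; rho = -0.790, permutation p = 0.0033, adjusted p = 0.0149). The fibroblast list gave much the same (r = -0.839, permutation p = 0.00079, adjusted p = 0.00474; rho = -0.860, permutation p = 0.00055, adjusted p = 0.00846). Without their 2 end libraries these r were -0.808 and -0.722. The lists share the libraries, and CPM values are scaled shares of 1 total, so these relations are not independent of each other. The part of neuron RNA in the relations to the other lists was not tested. Cpa3 itself had r = -0.720 to the sensory neuron genes (permutation p = 0.0193, adjusted p = 0.0434; rho = -0.643, adjusted permutation p = 0.0634). With the fibroblast genes its r was 0.747 (permutation p = 0.0106, adjusted p = 0.0273; rho = 0.378, adjusted permutation p = 0.313). Without libraries 4 and 11 these r were -0.350 and -0.056, so both relations rest on those libraries.

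Kitl ran the other way, with r = -0.830 to the sensory neuron genes (permutation p = 0.00774, adjusted p = 0.0232) and rho = -0.559 (permutation p = 0.0624, adjusted p = 0.112). Without libraries 4 and 11 its r was -0.252, so this relation rests on those libraries. Its r to the macrophage genes was 0.718 (permutation p = 0.00624, adjusted p = 0.0225), rho 0.825 (permutation p = 0.00141, adjusted p = 0.00846), and 0.668 without libraries 7 and 11, but 0.519 in run 1 and 0.913 in run 2. In GEM-PNST 15 of 16 sensory neuron genes fell against neurofibroma, where 37.9% of all genes fell. In paraspinal tumor 4 of the 16 rose and 1 fell, where 30.3% of all genes rose and 29.3% fell. The part of sensory neurons in the level of Kit was not tested.

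**Figure D5:**
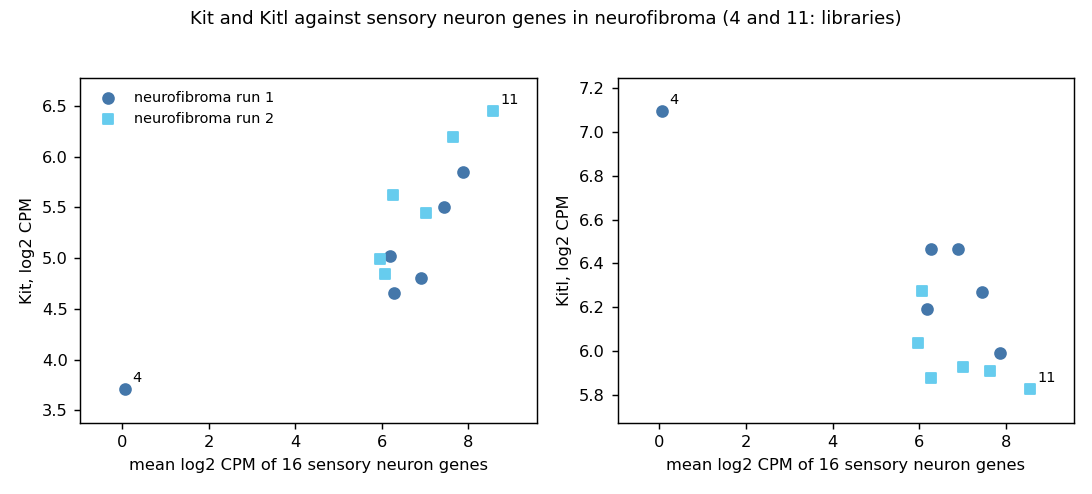
Log2 CPM of Kit and of Kitl (vertical axes) against the mean log2 CPM of 16 sensory neuron genes (horizontal axis) in the 12 neurofibroma libraries. Kit rises across the cloud (r = 0.845, and 0.737 without libraries 4 and 11), and the Kitl relation rests on libraries 4 and 11 at its ends (r = -0.252 without them).

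Genes of melanocytes, which also need KIT, were measured as well, and 5 of 10 passed the filter on low counts. The summed level of 10 melanocyte genes was 34.4 to 56.5 CPM in neurofibroma, most of it from Tyr. It was 0.949 to 2.59 CPM in paraspinal tumor and 0.695 to 2.27 CPM in GEM-PNST. Of the 5 tested, 4 fell in both comparisons, where 29.3% of all genes fell in paraspinal tumor and 37.9% in GEM-PNST. Tyr, the tyrosinase gene, had 0 or 1 count in each of the 8 paraspinal and GEM-PNST libraries, against 26.2 to 45.1 CPM in neurofibroma. Tyrp1, another pigment enzyme gene, was at 0 in all 4 GEM-PNST libraries, against a median of 0.661 CPM in neurofibroma, where libraries 4, 8 and 9 were also at 0. The cells that these RNAs came from were not tested.

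The 13829 genes whose mean log2 CPM in neurofibroma was 1 or more were ranked by Pearson r over the 12 neurofibroma libraries after each run mean was subtracted. The gene most like the mean of the mast-restricted genes was Il1rl1 (r = 0.975), which encodes the IL-33 receptor ST2, carried by mast cells. Birc3 (0.952), Serp1 (0.951), Cp (0.948) and Anxa1 (0.947) came next, with mean levels of 21.7, 108, 464 and 169 CPM, against 7.28 CPM for Il1rl1. For Kit the nearest were Wasl (0.989) and Rasgef1a (0.979), and for Kitl they were Lrrn4cl (0.927) and Arid4b (0.914). With 12 libraries such values are a description and carry no test. Before run means were subtracted, the mean of the mast-restricted genes was -0.73 log2 CPM in library 11. In the other neurofibroma libraries it was 1.02 to 2.96 log2 CPM, and these r were not recomputed without library 11.

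Of 30 other mast cell genes 29 were in the table and 23 were tested. In GEM-PNST 9 rose and 4 fell against neurofibroma, where 73.3% of all genes were called, with a median of 0.83 against -0.12 over all genes, and in paraspinal tumor 5 rose and 3 fell, where 59.5% of all genes were called, with a median of 0.07 against -0.01. Most of those that moved are also expressed by other cells. Ltc4s, the leukotriene C4 synthase gene, averaged 1.06 ± 0.759 CPM in neurofibroma (SD, n = 12), 6.26 ± 4.92 CPM in paraspinal tumor and 20.3 ± 18.2 CPM in GEM-PNST (SD, n = 4 each). Its log2 rise over neurofibroma was 4.25 ± 0.57 (SE) in GEM-PNST, with an adjusted p of 4.55e-06 (3.50 without library 4), and 2.56 ± 0.56 in paraspinal tumor, with an adjusted p of 0.000782. Cd63, a granule and lysosome membrane protein gene, rose by 2.88 in GEM-PNST and 1.64 in paraspinal tumor on the log2 scale. Adora3 rose in GEM-PNST (4.34, adjusted p = 2.17e-05, and 1.58 without library 1), at 102, 5.02, 4.71 and 2.83 CPM, against 0.527 to 2.85 CPM in neurofibroma. Gnai1, a G protein subunit gene, fell in both, with log2 fold changes of -6.75 in GEM-PNST (-8.06 without library 3) and -1.96 in paraspinal tumor.

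Gata2 passed in both comparisons only through 1 library each, with log2 fold changes of 2.28 in GEM-PNST (SE 0.81, adjusted p = 0.0185) and 1.63 in paraspinal tumor (SE 0.66, adjusted p = 0.0422). It was 0.203, 111, 8.14 and 15.6 CPM in GEM-PNST and 9.13, 4.92, 66.2 and 5.83 CPM in paraspinal tumor (subgroup 2 first), so 1 library of each stood far above the rest. They are GEM-PNST library 2 and paraspinal subgroup 1 library 1, whose codes are alike. Whether both came from 1 animal was not given in the sources used here. Without these libraries the log2 fold changes were 0.20 (adjusted p = 0.841) and -0.07 (adjusted p = 0.938). The GEM-PNST library at 111 CPM held 4 Kit and 16 Cpa3 counts. Mitf, a transcription factor gene of mast cells and melanocytes, fell in paraspinal tumor (-0.72, SE 0.23, adjusted p = 0.0111) and had a log2 fold change of -0.10 in GEM-PNST (adjusted p = 0.832), or -0.95 without library 2 (adjusted p = 0.0289).

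Downstream of the IgE receptor, 12 of 20 genes rose and 2 fell in GEM-PNST (median 1.94), where 35.4% of all genes rose and 37.9% fell. In paraspinal tumor 3 rose and 1 fell (median 0.22), where 30.3% of all genes rose and 29.3% fell. Those that rose are common to many leukocytes. Fcer1g, the gamma chain gene shared by several Fc receptors, was 389, 185, 330 and 315 CPM in GEM-PNST, against a median of 35.5 CPM and a highest value of 103 CPM in neurofibroma. That is a log2 fold change of 2.80 (SE 0.54, adjusted p = 0.000202), and all 4 libraries were above all 12. Lat2, an adaptor gene, was 270, 16.1, 80.6 and 56.5 CPM in GEM-PNST, against 1.46 to 17.5 CPM in neurofibroma, so that library 2 lay within the neurofibroma range. Its log2 fold change was 3.63, and 2.58 without library 1, whose pan-leukocyte sum stood apart. Rac2, a GTPase gene, rose by 2.77 on the log2 scale. Of 6 pan-leukocyte genes 5 rose and of 11 macrophage genes 8 rose and 1 fell in the same comparison. The summed level of the macrophage genes was 1950 to 5400 CPM in GEM-PNST and 80.4 to 905 CPM in neurofibroma, and its part in these differences was not tested.

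Of 28 genes that signal or act downstream of KIT or regulate it, 11 rose and 7 fell in GEM-PNST and 10 rose and 10 fell in paraspinal tumor, against neurofibroma, with medians of 0.44 and 0.09. Of all genes, 73.3% were called in GEM-PNST and 59.5% in paraspinal tumor, so these shares are near the background. The adaptor gene Dok1 averaged 2.06 ± 1.08 CPM in neurofibroma (SD, n = 12), 22.3 ± 8.12 CPM in paraspinal tumor and 108 ± 63.6 CPM in GEM-PNST (SD, n = 4 each), with no overlap of either tumor group with neurofibroma. Grb2, which links receptors to RAS, rose in both (2.40 and 1.57), and Sos1, its exchange factor partner, fell in both (-2.57 and -1.81). Pik3r1, the regulatory subunit gene of phosphoinositide 3-kinase, averaged 501 ± 77.3 CPM in neurofibroma, 212 ± 61.0 CPM in paraspinal tumor and 61.9 ± 8.64 CPM in GEM-PNST. It was also among the genes that fell in GEM-PNST against paraspinal tumor (log2 fold change -1.78, SE 0.29, adjusted p = 0.0093). These genes act in most cell types, and their levels in bulk tissue are not those of mast cells.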

How the data were processed

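Per the labels' protocols, extraction used RNeasy Plus Micro columns and library preparation used Nextera XT. The deposited values are unnormalized counts for each gene, and the submitters' processing notes name TopHat, HISAT2, featureCounts and mm10 with no version or role. The annotation and strand setting are not given in the sources used here. The deposited columns were tested to hold whole numbers of 0 or more. Of the 20 count columns, 10 are named by numbers alone and were recorded under the unit other, whose deposited values are also raw counts. All rows name genes.

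TMM factors over all 20 libraries, filterByExpr over 3 stages (16589 of 24062 genes, 95.78% to 99.97% of counts) and quasi-likelihood tests were run in edgeR 4.0.16 (R 4.3.3), with DESeq2 1.42.0 and limma 3.58.1 as alternatives. Log2 CPM used a prior count of 2. Comparisons used only the libraries compared, except that the subgroup test drew its spread from all paraspinal and GEM-PNST libraries. An SE is the size of the log2 fold change over the square root of F. The genes and the gene lists were chosen with earlier results of these data known. The text names all 10 genes, up to 4 genes of each list by lowest adjusted p in any comparison, and the most alike genes by r; Gata2, Mitf, Fcer1g, Ptprc and Il33 were named after their values were seen. The scripts were tested on simulated data. Within stages, 78 pairs of libraries were compared, and the lowest chi-square per degree of freedom was 23.86, so no library was counted as a repeat of another of its stage. Pairs across stages were not compared in this way, among them GEM-PNST library 2 and paraspinal subgroup 1 library 1. Gene positions and exon lengths are from GENCODE (GRCm38), and promoters from RefSeq (GRCm38.p6).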

Additional observations from a re-analysis of the deposited data

Results flagged for a closer look

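Cpa3 in GEM-PNST library 4 was far from the other libraries of its stage, at 28.3 CPM against 0.0676 to 4.37 CPM in the other 3. The gap took up 0.847 of the range, past the 95% critical value of 0.829 for 4 libraries. It was the 1 value so marked among 24 groups of values examined, and chance marks about 1 in 20. The same library had the highest levels of Cma1, Mcpt4 and Tpsb2 in GEM-PNST, at 34.5, 31.7 and 61.0 CPM.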

How the results depend on the processing

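Of 650 fold changes recomputed under the alternatives, 576 kept their direction and side of the threshold, 33 lost and 6 gained a call. Another 35 changed sign, all 35 of genes that had not passed, and the causes were not tested. Only genes that had passed could lose a call, 4 in GEM-PNST and 5 in paraspinal tumor against neurofibroma, under 16 and 18 alternatives each. They lost 18 and 15 calls.
Against neurofibroma, 4 genes passed in GEM-PNST. This count was 1 with limma-voom, 1 with the replicate block and 1 or 2 against neurofibroma run 1 or run 2 alone, and 2 to 4 with 1 library left out. In paraspinal tumor 5 passed, 2 with all 20 libraries in 1 fit, 2 with subgroup 1 alone and 3 to 5 with 1 library left out. For GEM-PNST against paraspinal tumor the count of 0 was 1 in the fit of all 20 and 2 with the block, and 0 with any library left out. Replicate numbers do not pair the libraries (12 pairs, correlations from -0.259 to 0.168, 4 over 0.1), so the block is given only here.
Signs turned as follows. GEM-PNST against neurofibroma: Mcpt4 -0.11 with RLE factors or DESeq2, -0.80 with the block and -0.30 against run 2 alone, Cma1 -1.21 with the block; with 1 library left out Mcpt4 ran from -1.79 to 0.47, Cma1 from -1.22 to 0.91 and Cpa3 from -2.56 to 0.08. GEM-PNST against paraspinal tumor: Kit -0.59 with limma-voom, -0.14 with the block and -0.22 against subgroup 1 alone, Hdc -0.19 with the block, Tpsab1 0.03 against subgroup 1 alone; with 1 library left out Kit ran from -0.55 to 0.76, Hdc from -0.21 to 0.81 and Tpsab1 from -1.09 to 0.38. Paraspinal tumor against neurofibroma: Ms4a2 -0.69 with subgroup 2 alone, -0.09 against run 1 alone and -0.13 to 0.48 with 1 library left out. Subgroup 2 against 1: Tpsab1 -0.01 and Hdc -0.09 with RLE, Hdc -0.02 with DESeq2, -0.10 with limma-voom and -0.16 with the block; with 1 library left out Tpsab1 ran from -0.20 to 0.48, Hdc from -0.84 to 0.57, Mcpt4 from -0.03 to 0.99 and Cpa3 from -0.49 to 0.03. Neurofibroma run 2 against run 1: Cma1 0.21 without library 4.
For 19 listed genes named in the text, leaving out 1 GEM-PNST or paraspinal library in turn was added after the data were seen. It turned the sign of Mitf (-0.95 to 0.24) and Prss34 (-4.66 to 0.64) in GEM-PNST, and of Gata2 (-0.07 to 1.96) and Rac2 (-0.12 to 0.68) in paraspinal tumor.
RLE factors moved the median of all genes to -0.29 from -0.12 in GEM-PNST and to -0.18 from -0.01 in paraspinal tumor, against neurofibroma. Over all genes, the block left 7419 of 12156 calls in number for GEM-PNST and 2947 of 9876 for paraspinal tumor, both against neurofibroma. For GEM-PNST against paraspinal tumor 1807 genes passed, 28.2% of them higher; other settings gave 89 (subgroup 2 alone) to 7107 (all 20 libraries, 54.3% higher), and DESeq2 4711 (41.6% higher). Between subgroups 0 genes passed (1991 at an unadjusted p under 0.05), against 5410 with limma-voom and 1212 with DESeq2, and between neurofibroma runs 0 (2200 unadjusted), against 526 with DESeq2. Ms4a2, Fcer1a and Tpsab1 had few counts, and with 0 counts in 2 GEM-PNST libraries the Ms4a2 fold change depends on the prior count.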

Other observations

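Other factors that feed or attract mast cells were measured beside Kitl. Of 20 such genes 14 were tested, of which 7 rose and 1 fell in GEM-PNST and 3 rose and 0 fell in paraspinal tumor, against neurofibroma, where 73.3% and 59.5% of all genes were called. Tgfb1, which encodes a cytokine that draws and restrains mast cells, was 647, 124, 109 and 107 CPM in GEM-PNST, against 1.63 to 17.3 CPM in neurofibroma, a log2 fold change of 4.84 (SE 0.51, adjusted p = 2.7e-07 by edgeR), or 3.72 without library 1. The chemokine gene Ccl5 rose in GEM-PNST, with a log2 fold change of 5.14, an SE of 0.81 and an adjusted p of 2.57e-05, and its levels were 6.69, 2.97, 202 and 24.4 CPM, against 0.0858 to 5.55 CPM in neurofibroma. Without library 3, which stood apart in salivary and epithelial genes, the log2 fold change was 2.76 (adjusted p = 0.00208). Il33, whose receptor gene Il1rl1 was the gene most like the mast-restricted set in neurofibroma, had log2 fold changes of -1.20 in GEM-PNST (adjusted p = 0.21, and -3.11 with an adjusted p of 0.00499 without library 3) and -0.81 in paraspinal tumor (adjusted p = 0.0913).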
